A study of Mus musculus with 12 samples.

Results

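The genes described here encode the proteasome, its activators, its inhibitor and the chaperones that assemble it. They were chosen by name, as the protein-coding genes whose symbol begins with Psm, a letter from a to g and a number. The rule used no measured value, but earlier results of these data were known when the genes were chosen. The rule found 44 genes of the 12584 in the table. By role, 43 of them are proteasome genes, and Psmc3ip, a recombination factor named for its binding to a proteasome ATPase, was matched by its name alone. Psmb9, Psmb11, Psma8, Psmd11, Psmd12 and Psmd14 were not analysed here. All cells were of CT26, an established mouse colon carcinoma line, and were treated for 24 h in 4 groups of 3 libraries: PBS (libraries N1 to N3), NP@M (N4 to N6), NP-D@M (N7 to N9) and NP-D@MP (N10 to N12). The labels do not explain the abbreviations, and the title of the series speaks of a nanodrug in a coat of engineered tumour cell membrane, aimed at CDKs, the kinases of the cell cycle and of transcription, alongside antibody therapy against PD-L1. Going by these names, the design asks what the coated particle (NP@M against PBS), the addition of D (NP-D@M against NP@M), the further addition of P (NP-D@MP against NP-D@M) and the whole agent (NP-D@MP against PBS) did to RNA levels. No label says that replicates were separate cultures, so p-values measure only how far these libraries spread, and part of that may be technical.

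The proteasome degrades proteins that carry ubiquitin chains. Its 20S core is a barrel of stacked rings, with rings of alpha subunits at its ends and rings of beta subunits, some of them proteolytic, inside. The 19S regulatory particle caps the barrel: its ATPases unfold substrates and its other subunits bind and remove ubiquitin. Other caps, PA28 and PA200, open the core without needing ubiquitin. In cells exposed to interferon, immunoproteasome beta subunits replace the constitutive proteolytic ones and favour peptides for MHC class I. When proteasome activity falls, the transcription factor NRF1 (Nfe2l1) raises the subunit genes together through antioxidant response elements in their promoters.

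Promoter sequences are shown because the subunit genes are known for this shared control. Windows from 250 bases before to 50 bases after the transcription start were matched by symbol in a RefSeq table (build GRCm38.p6) for 37 of the 44 genes. TGACNNNGC, the core of the antioxidant response element, was searched on both strands and was found in the windows of 5 of the 37 genes (13.5%), against 13.99% of all genes in that table. These 5 were Psmb5, Psmb6, Psmc6, Psmd9 and Psme4. In the stretches below, all on the gene's own strand from 5′ to 3′, the capitals mark the match.
Psmb5 (chr14:54617994-54618083, minus strand): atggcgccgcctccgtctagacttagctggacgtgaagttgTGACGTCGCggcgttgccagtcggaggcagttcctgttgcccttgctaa
Psmb6 (chr11:70525297-70525386, plus strand): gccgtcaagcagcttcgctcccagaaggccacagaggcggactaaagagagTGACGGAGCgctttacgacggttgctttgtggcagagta
Psmc6 (chr14:45329574-45329663, plus strand): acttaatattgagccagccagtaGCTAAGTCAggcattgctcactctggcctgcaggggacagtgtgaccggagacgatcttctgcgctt
In Psmc6 the match lay on the opposite strand, so that the capitals show its complement read backwards. The core of the interferon-stimulated response element (GAAA, 2 bases of any kind and GAAA) was found by the same search in Psmb3, Psmd4, Psmd9, Psme1 and Psmg4, again 5 of 37 genes (13.5%), against 3.993% of all genes. It is shown for 3 of them.
Psmb3 (chr11:97703231-97703320, plus strand): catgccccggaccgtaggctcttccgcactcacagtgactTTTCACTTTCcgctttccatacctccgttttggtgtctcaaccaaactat
Psmd4 (chr3:95042645-95042734, minus strand): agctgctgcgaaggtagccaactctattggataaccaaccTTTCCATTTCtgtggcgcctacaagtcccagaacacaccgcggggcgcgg
Psmg4 (chr13:34162904-34162993, plus strand): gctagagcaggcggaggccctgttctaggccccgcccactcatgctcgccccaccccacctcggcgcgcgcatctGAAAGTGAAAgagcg
The match was on the opposite strand in Psmb3 and Psmd4 and on the gene's strand in Psmg4. CCAAT, the box bound by NF-Y, was in 12 of 37 windows (32.4%), against 41.06% of all genes. A match is a run of letters and not a measured binding site, and no window was tested for binding.

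The deposited values were FPKM, reads per kilobase of gene and per mega-read of the library, so levels can be compared between genes. Whole reads could be recovered from them: the table held 12.8 to 15.7 M reads (mega-reads) per library, of which the 44 genes held 54277 to 81418. The library sizes that the authors' division implies were 28.2 to 31.1 M reads with PBS and NP@M and 7.13 to 8.4 M with NP-D@M and NP-D@MP. A gene with an equal share of the reads therefore had a higher FPKM in the latter libraries, and the counts of members called between them and the former are given under more than 1 scaling. Where a sentence names none, its values are in the deposited FPKM. Mitochondrial genes held 3.30% to 4.20% of the reads in the former and 7.41% to 14.4% in the latter. Of 11 markers of colon epithelium, Krt18, Krt20 and Lgr5 were in the table. Of 9 markers of macrophages and dendritic cells, which carry immunoproteasome, 6 were in the table; their summed FPKM was 12.3 to 14.7 with PBS, 13.3 to 14.3 with NP@M, 29.98 to 53.1 with NP-D@M and 47.6 to 53.1 with NP-D@MP. Ptprc, which marks all leukocytes, was at 0 in 9 libraries and at most 0.0677 FPKM in the other 3. The protocol text speaks of retinas, and of 9 retinal markers only Sag was in the table, at 0.589 FPKM or less. Fibroblast markers, 6 of 7 in the table, summed to 70.6 to 86.6 FPKM without D and 11.1 to 15.4 FPKM with it.

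With D, the proteasome genes did not move as a block. In the deposited FPKM, 31 of the 44 genes rose and 9 fell in NP-D@M against NP@M, with 4 not called. Higher were 41.8% of all 10101 tested genes and lower 47.7%. In NP-D@MP against PBS, 31 rose and 10 fell, with 3 not called, against 43.2% higher and 47.3% lower over all tested genes. The median log2 change of the 44 genes was 1.24 in both comparisons, and that of all tested genes was -0.19 in the former and -0.16 in the latter. The groups did not overlap for 40 of the 44 genes (90.9%) in NP-D@M against NP@M and for 41 (93.2%) in NP-D@MP against PBS. Over all tested genes these shares were 87.3% and 93.0%, so absence of overlap with D, given below for single genes, was common to most genes. All 44 genes reached 1 FPKM in 3 or more libraries, which was the filter. Genes were called by limma at a Benjamini-Hochberg adjusted p under 0.05 over all tested genes, and log2 changes are differences of log2(FPKM + 1), a scale on which low genes seem to change less than they do. In bulk RNA, fewer cells and less RNA per cell cannot be told apart.

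**Figure D1:**
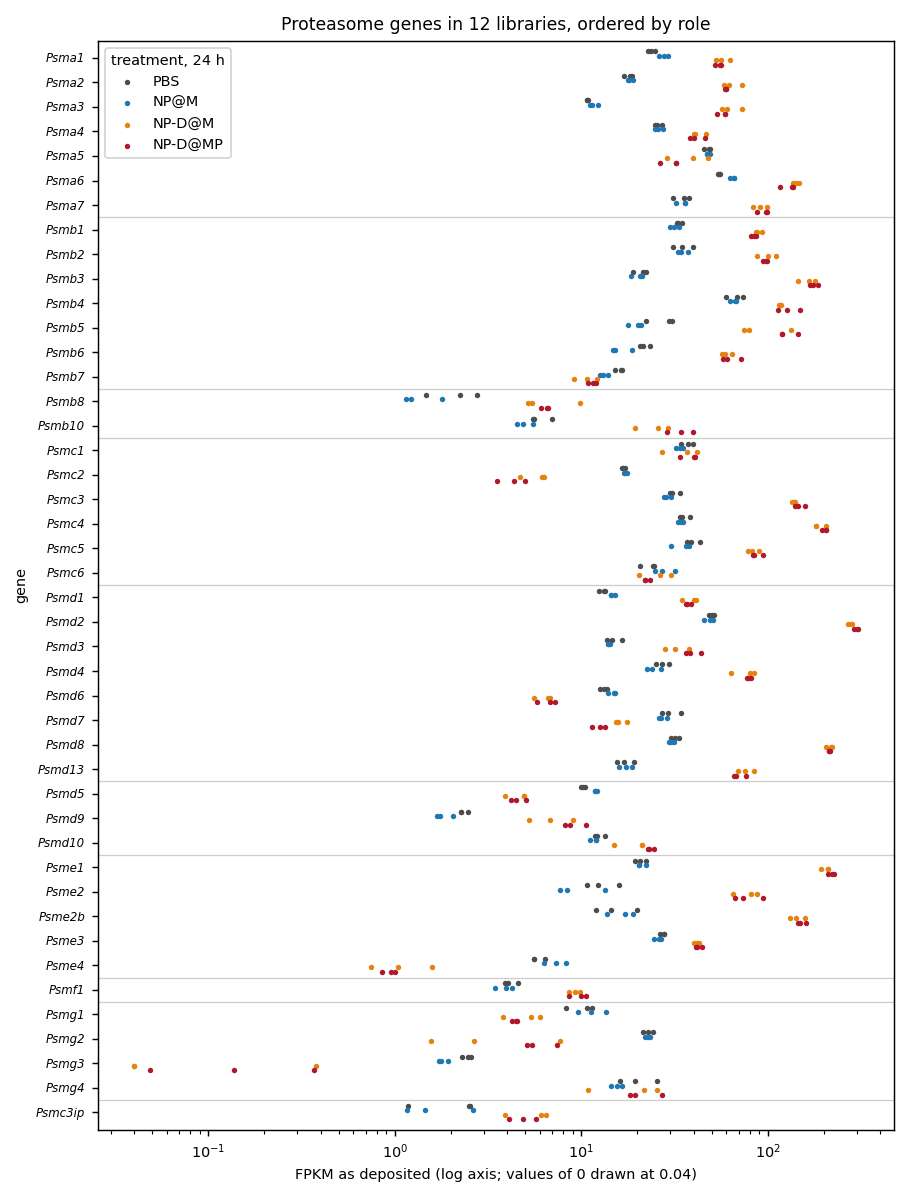
FPKM of each of the 44 genes in the 12 libraries on a log axis, 1 point per library, coloured by treatment and ordered by role (grey lines part the roles); values of 0 stand at the left edge. PBS and NP@M points lie together, NP-D@M and NP-D@MP points lie together, and the pairs part to the right for genes such as Psme1 and to the left for genes such as Psme4 and Psmg2.

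The size of these changes depended on the scaling. The 44 genes summed to 935 to 1046 FPKM with PBS, 965 to 977 with NP@M, 2864 to 3007 with NP-D@M and 2952 to 3171 with NP-D@MP. Their share of the reads in the table went the other way: 0.494% to 0.518%, 0.496% to 0.511%, 0.418% to 0.424% and 0.404% to 0.431% in the same order. Scaled to table reads, 11 genes rose and 26 fell in NP-D@M against NP@M (17.5% of all tested genes higher, 70.5% lower), and 10 rose and 28 fell in NP-D@MP against PBS (17.5% higher, 70.8% lower). Here and below, table reads means that each library was scaled by the reads recovered from it. For the 44 genes the median log2 change was then -0.47 and -0.51, beside -1.44 and -1.44 for all tested genes. With quantile normalization, 19 rose and 22 fell in NP-D@M against NP@M (37.7% higher and 41.8% lower over all genes), and 16 rose and 22 fell in NP-D@MP against PBS (38.0% higher and 42.3% lower). Across the 3 scalings and both comparisons, 9 genes were called higher each time: Psme1, Psme2, Psme2b, Psmb10, Psmb3, Psma3, Psmc4, Psmd2 and Psmd8. Another 9 were called lower each time: Psme4, Psmc2, Psmd6, Psmd7, Psmd5, Psmb7, Psmg1, Psmg2 and Psmg3. Over all tested genes, 14.02% were higher each time and 32.58% lower. The other 26 genes changed direction or lost the call under at least 1 scaling. The shares of all tested genes given here also belong beside the counts by role and by list below.

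**Figure D2:**
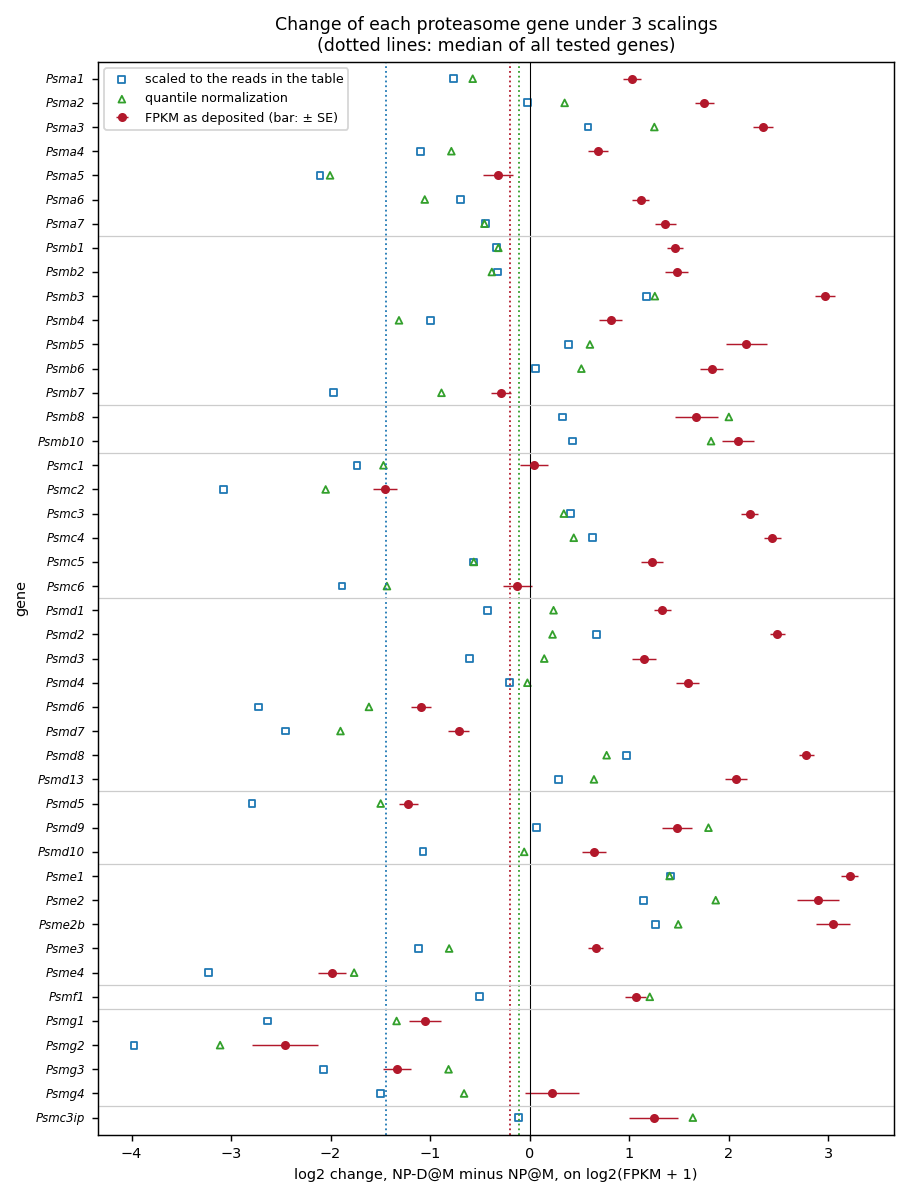
Log2 change of each gene in NP-D@M against NP@M for the deposited FPKM (filled circles, bars ± SE), after scaling to table reads (squares) and after quantile normalization (triangles); dotted lines mark the median of the 10101 tested genes under each scaling in the same colour. Psme1, Psme2, Psme2b and Psmb3 stand right of 0 under all 3 scalings, and Psme4, Psmc2, Psmg2 and Psmd6 stand left of it.

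The activators split by kind: in FPKM, 4 of the 5 rose and 1 fell in NP-D@M against NP@M, with a median log2 change of 2.90. On table reads and with quantile normalization, 3 rose and 2 fell. Positions below are gene spans in GRCm38 as the table gives them. Psme1 and Psme2 encode the alpha and beta subunits of the PA28 cap, which interferon raises in many cells. Psme1 (chr14:55578123-55581529) was at 22.1, 20.7 and 19.4 FPKM with PBS, 22.2, 20.4 and 20.5 with NP@M, 192, 209 and 210.3 with NP-D@M and 227, 209 and 222 with NP-D@MP. Every library with D was above every library without it and the groups did not overlap. It rose by 3.22 ± 0.086 (SE, adjusted p = 6.05e-11) in NP-D@M against NP@M, 9.69-fold in mean FPKM, and by 3.35 ± 0.086 (SE, adjusted p = 4.75e-11) in NP-D@MP against PBS. Scaled to table reads, these changes were 1.42 and 1.49. Of all 10101 tested genes, 95.9% had a lower change than Psme1 in the former comparison.

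Psme2 (chr14:55587441-55591113) was at 12.4, 15.9 and 10.7 FPKM with PBS, 7.71, 8.36 and 13.4 with NP@M, 65.4, 87.2 and 81.8 with NP-D@M and 93.8, 66.3 and 73.9 with NP-D@MP. The libraries without D spread widely, with N6 above N4 and N5, and all stood below the lowest library with D. It rose by 2.9 ± 0.21 (SE, adjusted p = 1.11e-07) in NP-D@M against NP@M and by 2.5 ± 0.21 (SE, adjusted p = 4.10e-07) in NP-D@MP against PBS. Psme2b, a copy of Psme2 without introns, was at 19.96, 12 and 14.5 FPKM with PBS, 19, 17.1 and 13.8 with NP@M, 142, 132 and 158 with NP-D@M and 149.5, 160.1 and 145 with NP-D@MP. It showed the same parting, with a log2 change of 3.05 ± 0.17 (SE, adjusted p = 8.86e-09) in NP-D@M against NP@M and 3.24 ± 0.17 (SE, adjusted p = 5.28e-09) in NP-D@MP against PBS. The 2 genes share sequence: 69.3% of the 50-base words of Psme2b and 28.3% of those of Psme2 also occur in other genes, mostly in each other and in Gm7928. How reads were divided between them is uncertain, and their separate levels are uncertain with it.

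Psme3 encodes PA28 gamma, a nuclear cap that is not part of the interferon-raised pair. Psme3 (chr11:101316213-101323537) was at 27.9, 27.9 and 26.6 FPKM with PBS, 26.9, 26.2 and 24.6 with NP@M, 42.9, 41.6 and 40.1 with NP-D@M and 44.2, 41.9 and 41.1 with NP-D@MP. In FPKM the libraries with D were higher without overlap, and the step was small. Its log2 change was 0.66 ± 0.078 (SE, adjusted p = 7.14e-06) in NP-D@M against NP@M and 0.61 ± 0.078 (SE, adjusted p = 1.50e-05) in NP-D@MP against PBS. The direction turned under the other scalings, to -1.12 and -1.23 on table reads and to -0.81 and -0.92 with quantile normalization. Psme4 encodes PA200, a large nuclear cap tied to chromatin and DNA repair. Psme4 (chr11:30771726-30880361) was at 5.57, 5.57 and 6.38 FPKM with PBS, 6.33, 8.29 and 7.33 with NP@M, 1.58, 1.04 and 0.741 with NP-D@M and 1.01, 0.85 and 0.953 with NP-D@MP, from 51 to 111 reads with NP-D@M and 1432 to 1505 with PBS. It was low in all 6 libraries with D and did not overlap the others. It fell, with a log2 change of -1.99 ± 0.14 (SE, adjusted p = 7.63e-08) in NP-D@M against NP@M and -1.82 ± 0.14 (SE, adjusted p = 1.65e-07) in NP-D@MP against PBS.

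Both immunoproteasome beta subunits in the table rose in FPKM with D, and for Psmb10 this held under every scaling. Psmb10 (beta2i, chr8:105935735-105938444) was at 5.5, 6.98 and 5.56 FPKM with PBS, 5.51, 4.87 and 4.55 with NP@M, 19.5, 25.8 and 29.1 with NP-D@M and 39.5, 28.7 and 34.4 with NP-D@MP. The groups with and without D did not overlap, and N7 was the lowest of those with D. It rose by 2.1 ± 0.16 (SE, adjusted p = 1.56e-07) in NP-D@M against NP@M and by 2.32 ± 0.16 (SE, adjusted p = 6.26e-08) in NP-D@MP against PBS. Psmb8 (beta5i, chr17:34197721-34201454) was at 2.76, 2.23 and 1.47 FPKM with PBS, 1.79, 1.15 and 1.22 with NP@M, 5.44, 5.19 and 9.88 with NP-D@M and 6.06, 6.55 and 6.66 with NP-D@MP. It was low everywhere, from 93 to 150 reads with NP@M and 103 to 222 with NP-D@M, and N9 stood above N7 and N8. Its log2 change was 1.68 ± 0.22 (SE, adjusted p = 1.51e-05) and 1.26 ± 0.22 (SE, adjusted p = 1.67e-04) in the same comparisons, but 0.33 and -0.22 when scaled to table reads, which did not pass the test. Macrophage and dendritic cell markers moved in the same direction (sums above), carried by Cd74 at 2.67 to 4.21 FPKM without D and 17.5 to 34.2 with it and by Cd68 at 2.02 to 2.80 and 7.87 to 19.1. Cd14, the most abundant of these markers without D, went the other way, from 6.30 to 8.05 FPKM without D to 2.18 to 7.54 with it, and Ptprc stayed at or near 0. Their part in the result was not tested.

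Among the constitutive beta subunits, 6 of 7 rose and 1 fell in FPKM, with a median log2 change of 1.48 in NP-D@M against NP@M. On table reads 1 rose and 4 fell, and with quantile normalization 3 rose and 4 fell. Psmb3 (beta3, chr11:97703399-97713500), a structural subunit, was at 22.1, 21.5 and 18.9 FPKM with PBS, 21, 18.4 and 20.7 with NP@M, 167, 146 and 179 with NP-D@M and 185, 169 and 174 with NP-D@MP. It was the beta gene with the largest rise, and its groups with and without D lay far apart. The log2 change was 2.97 ± 0.10 (SE, adjusted p = 2.45e-10) in NP-D@M against NP@M and 3.02 ± 0.10 (SE, adjusted p = 2.14e-10) in NP-D@MP against PBS. Psmb5 (beta5, the chymotrypsin-like subunit and the main target of bortezomib, chr14:54614119-54618022) was at 30.6, 29.6 and 22.4 FPKM with PBS, 20.1, 21 and 17.8 with NP@M, 79, 74.7 and 133 with NP-D@M and 145, 119 and 119 with NP-D@MP. The libraries with D were higher without overlap, and N9 lay with NP-D@MP and not with N7 and N8. Its log2 change was 2.18 ± 0.20 (SE, adjusted p = 9.13e-07) and 2.18 ± 0.20 (SE, adjusted p = 9.17e-07), and neither value passed the test once scaled to table reads (0.39 and 0.32). Other genes hold 54.1% of its 50-base words, among them the pseudogene Psmb5-ps, so its level is uncertain. Psmb7 (beta2, the trypsin-like subunit, chr2:38588036-38644087) was at 16.5, 16.3 and 15.3 FPKM with PBS, 14, 13.1 and 12.6 with NP@M, 12.1, 9.19 and 10.8 with NP-D@M and 11.5, 10.8 and 12.1 with NP-D@MP. It was the beta gene that fell, and NP-D@M lay just under NP@M. The log2 change was -0.29 ± 0.10 (SE, adjusted p = 0.0188) in NP-D@M against NP@M and -0.45 ± 0.10 (SE, adjusted p = 0.0014) in NP-D@MP against PBS. The former call was lost without N4 (adjusted p = 0.0655) and without N8 (adjusted p = 0.075). Psmb6 (beta1, the caspase-like subunit) went from 16.2 ± 2.18 FPKM with NP@M (mean ± SD, n = 3) to 59.9 ± 3.75 with NP-D@M, a log2 change of 1.83 that was 0.056 and not called on table reads. Psmb1, Psmb2 and Psmb4, structural subunits, had log2 changes of 1.46, 1.48 and 0.81 in NP-D@M against NP@M. These 3 turned to -0.34, -0.33 and -1.0 when scaled to table reads.

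In the alpha ring, 6 of 7 genes rose in NP-D@M against NP@M in FPKM, with a median log2 change of 1.12, and Psma5 was not called. On table reads 1 rose and 5 fell, and with quantile normalization 2 rose and 5 fell. The 71.4% lower on table reads was near the 70.5% of all tested genes. With quantile normalization 41.8% of all tested genes were lower. Psma3 (alpha7, chr12:70974621-70996347) was at 10.8, 10.7 and 10.8 FPKM with PBS, 11.2, 12.2 and 11.5 with NP@M, 60.8, 73.1 and 56.8 with NP-D@M and 53.3, 58.8 and 58.8 with NP-D@MP. PBS and NP@M libraries were nearly level and the libraries with D were all far above them. It rose by 2.35 ± 0.10 (SE, adjusted p = 1.12e-09) in NP-D@M against NP@M and by 2.3 ± 0.10 (SE, adjusted p = 1.30e-09) in NP-D@MP against PBS, and stayed called under every scaling. Psma5 (alpha5, chr3:108256926-108279974) was at 48.4, 49.3 and 45.6 FPKM with PBS, 47, 49.3 and 47 with NP@M, 39.9, 47.6 and 29 with NP-D@M and 32.3, 32.1 and 26.5 with NP-D@MP. N8 reached the level of the libraries without D, so that NP-D@M and NP@M overlapped, and NP-D@MP lay wholly below PBS. Its log2 change was -0.32 ± 0.15 (SE, adjusted p = 0.066) in NP-D@M against NP@M and -0.64 ± 0.15 (SE, adjusted p = 0.00184) in NP-D@MP against PBS, and the former was called without N8 (-0.48, adjusted p = 0.00694). Pseudogene copies share 49.96% of its 50-base words, so its level is uncertain. Psma6 (alpha1) was the most abundant alpha gene, at 64.7 ± 1.72 FPKM with NP@M and 142 ± 4.84 with NP-D@M. Its log2 change of 1.12 turned to -0.70 on table reads and -1.05 with quantile normalization, both called lower. Psma1, Psma2, Psma4 and Psma7 had log2 changes of 1.03, 1.76, 0.69 and 1.36 in NP-D@M against NP@M. Scaled to table reads, they were -0.76, -0.021, -1.09 and -0.44.

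The 6 ATPases sit in a single ring, 1 of each, and their RNAs parted with D. In NP-D@M against NP@M, 3 rose, 1 fell and 2 were not called in FPKM, whereas 2 rose and 4 fell on table reads and with quantile normalization. Of all tested genes, 70.5% were lower on table reads and 41.8% with quantile normalization. Psmc4 (Rpt3, chr7:28041707-28050101) was at 34.8, 38.1 and 33.9 FPKM with PBS, 35, 34.2 and 32.9 with NP@M, 182, 182 and 205 with NP-D@M and 206, 196 and 204 with NP-D@MP. All libraries with D were far above all others. The log2 change was 2.44 ± 0.085 (SE, adjusted p = 2.38e-10) in NP-D@M against NP@M and 2.47 ± 0.085 (SE, adjusted p = 2.15e-10) in NP-D@MP against PBS. Psmc2 (Rpt1, chr5:21785283-21803787) was at 17.2, 16.5 and 16.7 FPKM with PBS, 17.6, 17.3 and 17 with NP@M, 6.35, 4.69 and 6.13 with NP-D@M and 4.97, 3.54 and 4.35 with NP-D@MP. It moved the other way, also without overlap between libraries with and without D. The log2 change was -1.46 ± 0.12 (SE, adjusted p = 3.29e-07) in NP-D@M against NP@M and -1.76 ± 0.12 (SE, adjusted p = 6.03e-08) in NP-D@MP against PBS. Psmc3 (Rpt5) rose from 28.9 ± 1.38 to 137 ± 2.0 FPKM (log2 change 2.21) and Psmc5 (Rpt6) from 34.9 ± 4.07 to 83.3 ± 5.94 (log2 change 1.24). Psmc5 turned to -0.57 when scaled to table reads. Psmc1 (Rpt2) was at 33.7 ± 1.49 and 35.3 ± 7.38 FPKM, and Psmc6 (Rpt4) at 27.9 ± 3.54 and 25.7 ± 4.92. Their groups overlapped in FPKM, with adjusted p of 0.763 and 0.419. Both were called lower under the other scalings, at -1.73 and -1.88 on table reads and -1.47 and -1.43 with quantile normalization.

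Among the 8 other 19S subunits, 6 rose and 2 fell in FPKM in NP-D@M against NP@M. On table reads 3 rose and 4 fell, and with quantile normalization 4 rose and 2 fell. Psmd8 (Rpn12, a lid subunit, chr7:29174188-29180701) was at 31.9, 33.4 and 30.2 FPKM with PBS, 31.3, 30.1 and 29.7 with NP@M, 219.7, 205 and 219 with NP-D@M and 213, 213 and 216 with NP-D@MP. The replicates of each group were close, and the groups with D were far above the others. It rose by 2.78 ± 0.077 (SE, adjusted p = 6.78e-11) in NP-D@M against NP@M and by 2.71 ± 0.077 (SE, adjusted p = 7.20e-11) in NP-D@MP against PBS. Psmd2 (Rpn1, the scaffold that binds ubiquitin shuttles) had the highest mean FPKM of the 44 genes with NP-D@M, with a level of 48.4 ± 2.49 FPKM with NP@M and 276 ± 7.43 with NP-D@M, from 8176 to 9555 reads in the latter. Psmd6 (Rpn7, a lid subunit, chr14:14112174-14120984) was at 13.7, 12.6 and 13.3 FPKM with PBS, 15, 15.1 and 13.9 with NP@M, 6.81, 6.65 and 5.61 with NP-D@M and 5.78, 7.21 and 6.81 with NP-D@MP. It fell without overlap, with a log2 change of -1.1 ± 0.10 (SE, adjusted p = 7.96e-07) in NP-D@M against NP@M and -0.91 ± 0.10 (SE, adjusted p = 4.29e-06) in NP-D@MP against PBS. Psmd7 (Rpn8, partner of the lid deubiquitinase, chr8:107580381-107588464) was at 29.2, 34.2 and 27.1 FPKM with PBS, 26, 26.8 and 28.9 with NP@M, 15.7, 15.4 and 17.7 with NP-D@M and 11.5, 13.4 and 12.6 with NP-D@MP. It was lowest with NP-D@MP and did not overlap between any group with D and any without. The log2 change was -0.71 ± 0.11 (SE, adjusted p = 5.34e-05) in NP-D@M against NP@M and -1.21 ± 0.11 (SE, adjusted p = 5.50e-07) in NP-D@MP against PBS. Psmd13 (Rpn9), Psmd4 (Rpn10, a ubiquitin receptor), Psmd1 (Rpn2) and Psmd3 (Rpn3) had log2 changes of 2.07, 1.59, 1.33 and 1.15 in NP-D@M against NP@M. Scaled to table reads, Psmd13 stayed positive at 0.29, and the other 3 were at -0.20, -0.43 and -0.60.

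Among the chaperones that build the 20S core, lower levels with D prevailed, while most of the subunits they assemble were higher in FPKM. Of 4 genes, 3 fell and none rose in NP-D@M against NP@M, with a median log2 change of -1.19 in FPKM. All 4 fell on table reads and with quantile normalization. Under both of these scalings 5 of the 7 alpha genes and 4 of the 7 constitutive beta genes fell as well, so opposite directions prevailed in FPKM only. The chaperones still had the lower median log2 change. It was -2.35 on table reads, beside -0.70 for the alpha and -0.33 for the constitutive beta genes. With quantile normalization these medians were -1.08, -0.57 and -0.31. Lower in the same comparison were 70.5% of all tested genes on table reads and 41.8% with quantile normalization. Psmg2 (PAC2), partner of Psmg1 in the chaperone of the alpha ring, was at 24.1, 22.8 and 21.5 FPKM with PBS, 22, 23.5 and 22.8 with NP@M, 7.65, 1.56 and 2.65 with NP-D@M and 5.43, 5.11 and 7.41 with NP-D@MP. All libraries with D were low, from 12 to 68 reads with NP-D@M, and N7 was well above N8 and N9. The log2 change was -2.46 ± 0.33 (SE, adjusted p = 2.36e-05) in NP-D@M against NP@M and -1.78 ± 0.33 (SE, adjusted p = 3.27e-04) in NP-D@MP against PBS. Psmg1 (PAC1) was at 10.1 ± 1.64 FPKM with PBS, 11.5 ± 2.0 with NP@M, 5.06 ± 1.13 for NP-D@M, and 4.42 ± 0.127 for NP-D@MP. Psmg3 (PAC3) was read 148 to 227 times per library without D and 0 to 9 times with it. It was listed at 0 in N7 and N8, so its size of change is not given as a fold. Psmg4 (PAC4), partner of Psmg3, was at 15.5 ± 1.08 FPKM with NP@M and 19.4 ± 7.54 with NP-D@M, with overlap and an adjusted p of 0.428. Its call depended on the scaling and on N8, the lowest library. Psmg4 was called lower with all libraries on table reads (log2 change -1.498, limma adjusted p = 1.09e-04) and with quantile normalization (-0.66, adjusted p = 0.0213), and higher in FPKM without N8 (0.57, adjusted p = 0.0176).

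Of the 3 chaperones of the 19S base, 2 rose and 1 fell in FPKM in NP-D@M against NP@M. On table reads none rose and 2 fell, and with quantile normalization 1 rose and 1 fell. Psmd5 (S5b, chr2:34849734-34874968) was at 10.01, 10.4 and 10.2 FPKM with PBS, 12.1, 11.9 and 11.9 with NP@M, 4.91, 4.96 and 3.91 with NP-D@M and 4.22, 5.07 and 4.44 with NP-D@MP. It was lower in every library with D. The log2 change was -1.22 ± 0.097 (SE, adjusted p = 2.28e-07) in NP-D@M against NP@M and -1.01 ± 0.097 (SE, adjusted p = 1.20e-06) in NP-D@MP against PBS. Psmd9 (p27, chr5:123169413-123250131) was at 2.26, 2.47 and 2.27 FPKM with PBS, 2.06, 1.68 and 1.75 with NP@M, 5.28, 6.81 and 8.97 with NP-D@M and 10.6, 8.75 and 8.22 with NP-D@MP. It was higher in every library with D, with N9 and NP-D@MP above N7 and N8. Its log2 change was 1.48 ± 0.15 (SE, adjusted p = 2.17e-06) and 1.6 ± 0.15 (SE, adjusted p = 1.06e-06), and it was 0.067 and 0.066, not called, when scaled to table reads. With quantile normalization Psmd9 was called higher, at 1.80 and 1.78. The antisense gene Gm26745 overlaps 25.5% of its exon bases, and since the strand setting is not given, reads of the 2 cannot be told apart. Psmd10 (gankyrin) was at 11.7 ± 0.537 FPKM with NP@M and 19.1 ± 3.55 with NP-D@M. Its log2 change was 0.65, called higher, in FPKM, -1.07, called lower, on table reads and -0.054, not called, with quantile normalization. Psmf1 (PI31, chr2:151715812-151744186), an inhibitor of the core in vitro, was at 3.91, 4.07 and 4.55 FPKM with PBS, 3.46, 4.28 and 3.94 with NP@M, 9.23, 9.89 and 8.62 with NP-D@M and 9.99, 10.6 and 8.6 with NP-D@MP. The libraries with D were higher in FPKM without overlap. The log2 change was 1.07 ± 0.10 (SE, adjusted p = 1.46e-06) in NP-D@M against NP@M and 1.05 ± 0.10 (SE, adjusted p = 1.68e-06) in NP-D@MP against PBS. It turned to -0.50 and -0.58 when scaled to table reads, and was 1.21 and 1.11, called higher, with quantile normalization. Psmc3ip (chr11:101091823-101095436), no proteasome gene, was at 2.49, 2.53 and 1.17 FPKM with PBS, 2.64, 1.45 and 1.17 with NP@M, 6.09, 6.44 and 3.89 with NP-D@M and 4.85, 5.73 and 4.09 with NP-D@MP. N1, N2 and N4 stood above the other libraries without D. Its log2 change was 1.25 ± 0.25 (SE, adjusted p = 4.88e-04) and 0.97 ± 0.25 (SE, adjusted p = 0.00285), and -0.11 and -0.44 when scaled to table reads. With quantile normalization it was 1.64 and 1.34, called higher.

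Ratios within a library do not depend on the library size, and they showed the subunits of a complex spreading apart with D. The SD of log2 FPKM over the 14 subunits of the 19S particle was 0.640, 0.671 and 0.606 with PBS and 0.551, 0.591 and 0.558 with NP@M. It was 1.74, 1.80 and 1.79 with NP-D@M and 1.90, 1.88 and 1.86 with NP-D@MP. The highest and the lowest of these 14 genes were thus 1.72 to 2.02 log2 units apart without D and 5.47 to 6.36 with it. Over the 14 constitutive 20S genes, the SD was 0.703 to 0.821 without D and 0.924 to 1.07 with it, so the libraries did not overlap and the step was smaller. The median of the 19S genes stood -0.02 to 0.16 log2 units from that of the 20S genes without D and -0.56 to -0.43 with it. The same spread was not measured over all genes, so whether it was particular to these complexes is not known. With quantile normalization, the 19S log2 changes in NP-D@M against NP@M ran from -2.05 (Psmc2) to 0.77 (Psmd8), against -1.46 and 2.78 in FPKM. With 3 libraries a group, these ratios were given no test.

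Ratios between the caps and between the forms of a catalytic site parted the libraries with and without D for some pairs of genes and not for others. The log2 ratio of Psme3 to Psme1 was 0.26 to 0.46 in the 6 libraries without D and -2.43 to -2.16 in the 6 with it. The log2 ratio of Psmb10 to Psmb7, the immunoproteasome and the constitutive form of the beta2 site, went from -1.42 ± 0.18 with PBS (SD, n = 3) and -1.41 ± 0.065 with NP@M to 1.20 ± 0.45 in the NP-D@M libraries and 1.57 ± 0.19 in those of NP-D@MP. For the beta5 site, the log2 ratio of Psmb8 to Psmb5 was -3.71 ± 0.23, -3.85 ± 0.35, -3.82 ± 0.060 and -4.31 ± 0.24 in the same order, so that the libraries with and without D overlapped. The ratio at beta2 thus crossed 0, and that at beta5 stayed between -4.58 and -3.47 in all libraries. Within this range the NP-D@MP libraries, at -4.58 to -4.16, lay below all PBS and NP-D@M libraries. They overlapped NP@M, where N5 was at -4.20. The level of Psmb5 is uncertain, as given above, and the beta5 ratio is uncertain with it. The log2 ratio of Psme1 to Psme2 was 0.69 ± 0.27, 1.14 ± 0.47, 1.39 ± 0.15 and 1.51 ± 0.20, with overlap between NP@M and the groups with D.

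**Figure D3:**
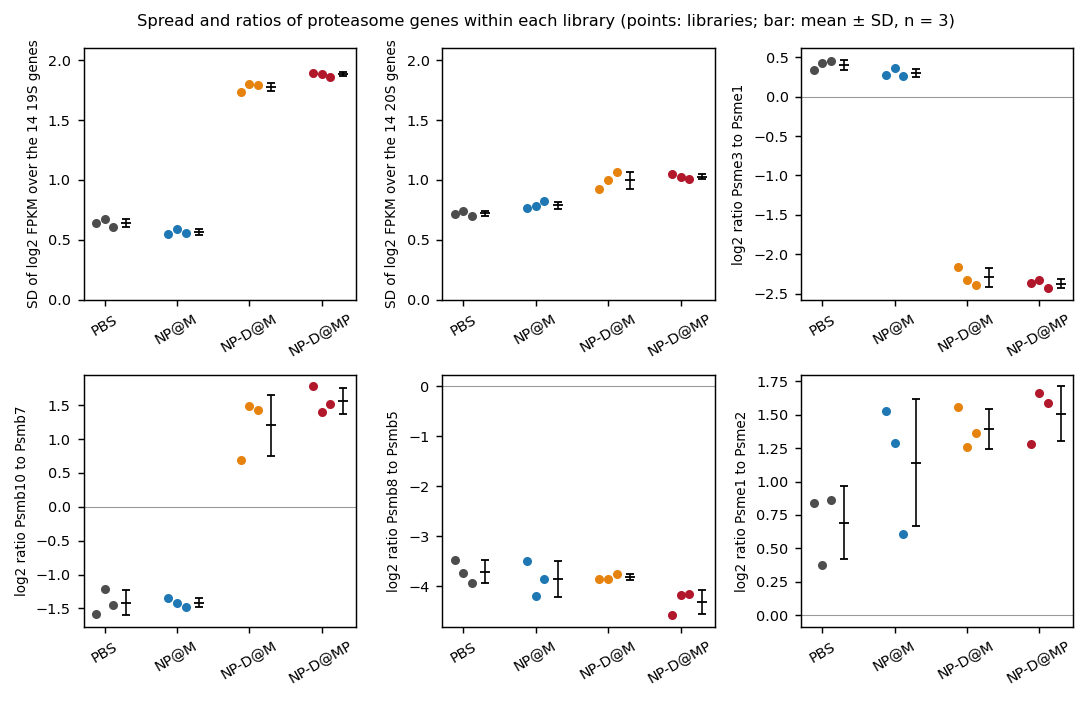
SD of log2 FPKM over the 14 genes of the 19S particle and over the 14 constitutive 20S genes, and 4 log2 ratios between members, in each library (points) with the mean ± SD of the 3 libraries of a group (bars). The 19S spread lies between 0.551 and 0.671 without D and between 1.74 and 1.90 with D, while the ratio of Psmb8 to Psmb5 overlaps between libraries with and without D.

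NP-D@M against NP@M and NP-D@MP against PBS share no library, although the fit estimated 1 spread for all. The changes of the members were close in both. Higher in both were 31 genes and lower in both 9, with none in opposite directions, Psma5 called in 1 only and Psmc1, Psmc6 and Psmg4 in neither. The same direction in both was called for 90.9% of the members and for 85.5% of all tested genes. The 2 log2 changes were within 0.5 of each other for 43 of the 44 genes, and Psmg2 differed by 0.68, with -2.46 in the former and -1.78 in the latter.

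**Figure D4:**
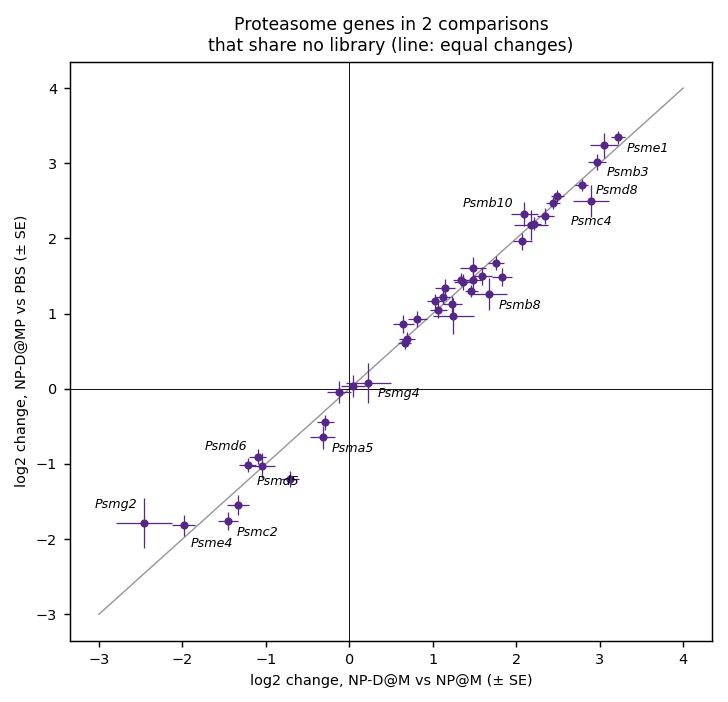
Log2 change of each of the 44 genes in NP-D@M against NP@M (x axis) and in NP-D@MP against PBS (y axis), both on log2(FPKM + 1) with bars for ± SE and a line for equal changes. The points follow the line from Psmg2 and Psme4 at the lower left to Psme1 at the upper right.

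The coated particle alone left the proteasome genes without a call. In NP@M against PBS, 0 of the 44 genes were higher (0% of all tested genes) and 0 lower (0.00990%), and voom on the recovered reads called none either. Of the 44, 5 had an unadjusted p under 0.05. Psmb6 went from 21.8 ± 1.42 to 16.2 ± 2.18 FPKM, a log2 change of -0.41 ± 0.12 (SE, adjusted p = 0.448). Psmb5 and Psmb7 had log2 changes of -0.46 and -0.26 and Psma6 and Psma1 of 0.24 and 0.21, with adjusted p of 0.448 to 0.456. The groups did not overlap for 12 of the 44 genes (27.3%), beside 28.4% of all tested genes.

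Adding P to the agent with D likewise gave no call among the 44 genes with all libraries in the fit. In NP-D@MP against NP-D@M, 0 were higher (0.0396% of all tested genes) and 0 lower (0.00990%), voom called none, and 7 had an unadjusted p under 0.05. These were Psmd7 (-0.36), Psmc2 (-0.35), Psmb10 (0.45), Psmd10 (0.30), Psmd9 (0.36), Psmd3 (0.28) and Psmb5 (0.46), with log2 changes in brackets. The groups did not overlap for 5 of 44 genes (11.4%), beside 14.2% of all tested genes. This comparison turned on N9, which stood apart from N7 and N8 in several members. Without N9, Psmb5 (log2 change 0.72, adjusted p = 0.0149), Psmd9 (0.53, 0.0262), Psmb10 (0.58, 0.0460) and Psmd3 (0.39, 0.0460) were called higher and Psma5 (-0.52, 0.0196) lower. Over all tested genes, 969 were then called higher and 290 lower. Without N7, Psmg2 was called higher (log2 change 1.18, adjusted p = 0.0255).

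Lists of genes that work with the proteasome were counted beside all tested genes, of which 41.8% were higher and 47.7% lower in NP-D@M against NP@M in FPKM. On table reads these shares were 17.5% and 70.5%, and with quantile normalization 37.7% and 41.8%. Of 13 tested partners, 6 rose (46.2%) and 6 fell (46.2%), shares near those of all genes, and 6 rose and 5 fell in NP-D@MP against PBS. On table reads, 3 partners rose (23.1%) and 10 fell (76.9%) in NP-D@M against NP@M, not far from the shares of all genes. Pomp, which matures the 20S core, went from 11.8 ± 0.88 to 141 ± 5.08 FPKM and Sem1, a small lid subunit, from 10.4 ± 1.46 to 156 ± 45.2, with log2 changes of 3.47 and 3.74. Akirin2, needed for nuclear import of proteasomes, fell from 33 ± 3.52 to 1.18 ± 1.03 FPKM (log2 change -4.06). Of 14 genes for ubiquitin supply and shuttles, 9 rose and 5 fell in NP-D@M against NP@M and 8 and 5 in NP-D@MP against PBS in FPKM. The balance turned in NP-D@M against NP@M to 3 higher and 9 lower on table reads and to 3 higher and 10 lower with quantile normalization. The E1 enzyme Uba1 rose (log2 change 2.24), while the polyubiquitin gene Ubb fell (-0.36). Of 14 genes that control proteasome transcription, 1 rose and 8 fell in either comparison. Nfe2l1 (NRF1) was at 31.2 ± 2.86 FPKM with NP@M and 14.1 ± 1.77 with NP-D@M (log2 change -1.1). Its activating protease Ddi2 and the glycosidase Ngly1 had log2 changes of -1.45 and -0.94, and Nfe2l2 (NRF2) of -3.6. Scaled to table reads, 0 of these 14 rose and 13 fell in NP-D@M against NP@M, where 70.5% of all tested genes fell.

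Of 9 genes of interferon control, 2 rose and 7 fell in either comparison in FPKM, and all 9 fell on table reads. In NP-D@M against NP@M, 47.7% of all tested genes were lower in FPKM and 70.5% on table reads. Irf1, which drives immunoproteasome genes, was at 3.99 ± 0.301 FPKM with NP@M and 0.258 ± 0.205 with NP-D@M (log2 change -2.0), and Ifngr1 and Jak2 had log2 changes of -2.92 and -2.28. Jak1 had a log2 change of 0.90 and fell when scaled to table reads (-0.81). Of 10 neighbours in antigen processing, 7 rose and 3 fell in NP-D@M against NP@M and 7 and 2 in NP-D@MP against PBS in FPKM. In NP-D@M against NP@M, 5 rose and 4 fell on table reads. The peptide transporter Tap1 had a log2 change of -1.94 and Tap2 of -0.29, while the MHC class I genes H2-K1 and H2-D1 were at 3.13 and 3.34. Other large complexes of many subunits were listed beside the proteasome. Of 8 TRiC chaperonin genes, 6 rose and 2 fell in NP-D@M against NP@M in FPKM, with log2 changes from -1.1 for Cct4 to 2.67 for Cct7. On table reads 2 rose and 5 fell, and with quantile normalization 1 rose and 6 fell. Of 8 COP9 signalosome genes, relatives of the 19S lid, 4 rose and 2 fell in FPKM, from -0.65 for Cops2 to 3.04 for Cops6, and 3 rose and 5 fell on table reads. In both complexes some genes were called higher and others lower under each of the 3 scalings.

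Transcript features were set beside the changes as a description. The 31 genes that rose in NP-D@M against NP@M had a median GC content of 51.0% in their longest transcript and a median gene length of 2607 bases, against 47.1% and 2893 bases for the 9 that fell. Across the 44 genes, Spearman's rho between GC content and log2 change was 0.49, beside 0.19 over 10090 tested genes with a transcript. For gene length it was -0.09, beside -0.32 over all 10101. For the length of the gene from start to end on the chromosome it was -0.32, beside -0.27. Apart from the 5 genes named above as uncertain, no member shared more than 17.8% of its 50-base words with other genes. Genes are not independent replicates, and all points share the same 6 libraries. With a smooth trend on gene length removed from each library, 29 genes rose and 11 fell in NP-D@M against NP@M and 27 and 12 in NP-D@MP against PBS. Over all tested genes, 38.29% were then higher and 43.9% lower in the former and 38.75% and 43.83% in the latter. The genes with a TGACNNNGC match did not share a direction in NP-D@M against NP@M: Psmb5 (2.18), Psmb6 (1.83) and Psmd9 (1.48) rose, Psme4 (-1.99) fell and Psmc6 (-0.12) was not called. Of those with the core of the interferon-stimulated response element, Psme1 (3.22), Psmb3 (2.97), Psmd4 (1.59) and Psmd9 rose in FPKM and Psmg4 (0.23) was not called. Of all 44 genes, 31 rose in FPKM. On table reads Psme1 and Psmb3 were still called higher, Psmd4 (-0.20) and Psmd9 (0.067) were not called and Psmg4 (-1.498) was called lower. Psme2, Psmb10 and Psmb8 had no match in their windows.

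**Figure D5:**
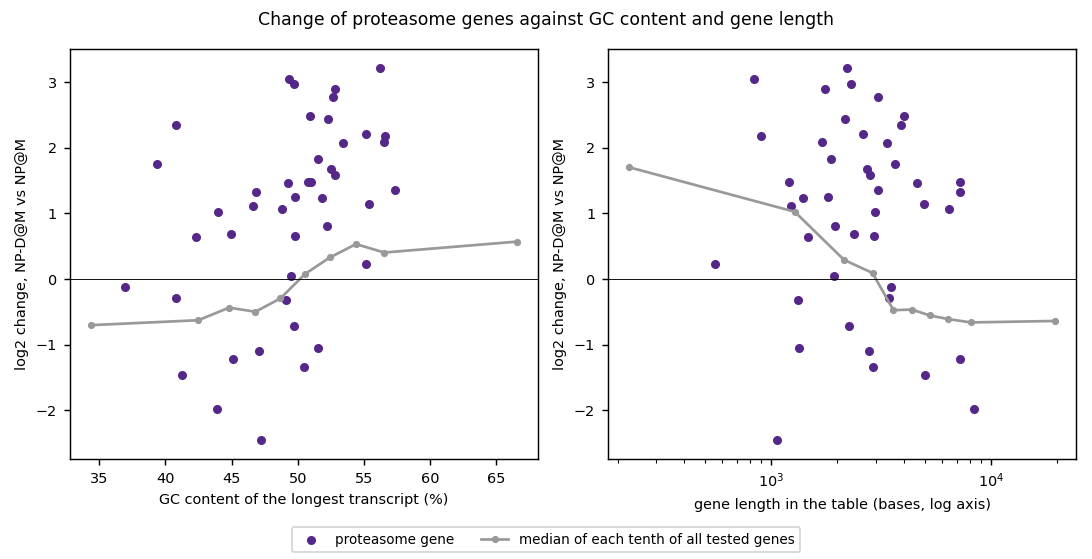
Log2 change in NP-D@M against NP@M on log2(FPKM + 1) against the GC content of the longest transcript in percent (left) and against gene length in bases on a log axis (right), 1 point per gene of the 44, with grey points for the medians of 10 equal groups of all tested genes. The 44 genes scatter widely around the grey line in both panels, with Psme1 at the top and Psmg2 at the bottom.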

How the data were processed

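RNA was sequenced from CT26 cells in 12 libraries, made per the labels with an Illumina TruSeq kit; the protocol names retinas, although the labels give a cell line. The authors deposited a table of FPKM values with gene identifiers, coordinates and lengths. Bowtie 0.12.2 and mm8 are named per the submitters' processing notes, whereas the coordinates of all 44 genes are those of GRCm38 (GENCODE M21). The counter, the strand setting, the library sizes and the rule that chose the genes are not given in the sources used here. FPKM times length fell on whole multiples of a step per library for 100% of values, which gave reads and library sizes. Replicates were checked for duplicates, and none agreed within sampling noise (chi-square over degrees of freedom 6.93 to 57.7).

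limma 3.58.1 in R 4.3.3 was fitted to log2(FPKM + 1) with all 12 libraries, for the 10101 genes with at least 1 FPKM in at least 3 libraries, and checked on simulated data. Calls were made at a Benjamini-Hochberg adjusted p under 0.05 over all of them. Library values are given for 21 genes picked by rule and, beside Psme2, for its copy Psme2b. The 21 were those fixed by name for the catalytic sites and caps, Psmc3ip, and in each role the called gene with the largest rise and the largest fall. The members and lists were chosen with earlier results of these data known. Alternatives were table reads as library sizes, quantile normalization, voom on the reads, no filter, a pseudocount of 0.1, a fit on 6 libraries, trend and robust settings, a length trend removed, and leaving out each library. Intervals from counting were not used, and depth is given as reads.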

Additional observations from a re-analysis of the deposited data

How the results depend on the processing

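No paired analysis was possible because the library numbers are shared by no groups. Scaling decided most of the counts. Scaled to table reads, members higher and lower were 11 and 26 in NP-D@M against NP@M and 10 and 28 in NP-D@MP against PBS; their median log2 change was -0.47 and -0.51, and its distance from the median of all genes 0.97 and 0.93. With quantile normalization, the counts were 19 and 22, and 16 and 22, the medians -0.18 and -0.29, and the distances -0.079 and -0.16, so that the members no longer stood above all genes. In the deposited FPKM the distances were 1.44 and 1.40. They were 1.60 and 1.51 with voom, 1.60 and 1.5 with a pseudocount of 0.1, and 1.06 and 1.0 (0.9999) with the length trend removed. The median itself was 1.32 with voom in NP-D@M against NP@M, and 0.88 and 0.83 with the length trend removed. In NP-D@MP against NP-D@M the median of 0.052 became -0.056 with quantile normalization and -0.031 with the length trend removed. Leaving out 1 library at a time gave 0 to 4 members higher and 0 to 1 lower there, the highest counts without N9.

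Among the 21 genes picked by rule, some reversed under 2 settings. Scaled to table reads, Psme3, Psmc3ip and Psmf1 reversed to -1.12, -0.11 and -0.50 in NP-D@M against NP@M and to -1.23, -0.44 and -0.58 in NP-D@MP against PBS, and Psmb8 to -0.22 in the latter. With quantile normalization, Psme3 reversed to -0.81 and -0.92. Over the 21 genes given by library, changes called as reported kept direction and call under the alternatives 554 times, lost the call 11 times and reversed 9 times. Changes not called as reported gained a call 10 times and otherwise stayed uncalled, 44 times with the opposite sign and 548 times with the same. The cause was not tested. Depth limits Psmg3 and Psmg2 most, which had as few as 0 and 12 reads with NP-D@M.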
